A study of Mus musculus with 25 samples.

Results

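The 10 genes followed here belong to the Notch pathway and measured in soleus muscle: the receptors Notch1, Notch2, Notch3 and Notch4, the ligands Dll4 and Jag1, and the target genes Hes1, Hey1, Hey2 and Heyl. They were chosen by name, with earlier results of these data known. Matching by symbol to the gene identifiers of the count table found all 10 among 52636 genes. All 10 passed the filter on low counts, as did 16340 genes in total. RNA-seq was performed on 1 soleus from each of 25 male and female mice, 12 weeks old, on a C57BL/6 background. WT mice carried floxed Dnmt3a (Dnmt3a flox/flox) without Cre, and mD3AKO mice carried the same floxed alleles plus Cre recombinase under the muscle creatine kinase promoter (mCK-Cre), so that Dnmt3a, which encodes a de novo DNA methyltransferase, was targeted where that promoter is active, in muscle fibers, and cells of the muscle that do not use it are not targeted. Rested mice had been placed on a sham treadmill, and exercised mice were killed 60 min after the end of a single treadmill run. There were 5 WT and 7 mD3AKO rested mice, and 7 WT and 6 mD3AKO exercised mice, 13 males and 12 females in all.

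Notch receptors are membrane proteins that are cut when a ligand on a neighbouring cell pulls on them. The freed intracellular part enters the nucleus, binds the DNA-binding protein RBPJ and switches on target genes, among them the HES and HEY repressors. In muscle, Notch signaling is best known for keeping satellite cells quiescent, with Heyl and Hey1 as targets there, and for vessel growth, where DLL4 marks arterial and sprouting endothelium, NOTCH4 is largely endothelial and NOTCH3 sits on the smooth muscle cells and pericytes of the vessel wall. Hes1 is a target whose mRNA and protein are both short-lived.

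The libraries held 22671457 to 37431801 counts in genes (median 32189360). Dnmt3a ran from 93.4 to 131 CPM (counts scaled to a library of 1000000) in WT mice and from 34.5 to 53.9 CPM in mD3AKO mice, with no overlap. Slow fiber markers were abundant, with Myh7 at a mean of 11900 CPM. Mouse 15, a rested mD3AKO male, stood apart with 39.5% of its counts on 3 ribosomal RNA genes against 7.75 to 13.0% elsewhere, and without it the same number of members, 4, passed the test for exercise. Since whole muscle was measured, fewer cells of a type and less RNA per cell cannot be told apart for any gene below.

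To show what lies upstream of the members that moved, the stretch before the RefSeq transcription start (build GRCm38.p6, 5′ to 3′ on the gene's strand, trimmed of any base inside an annotated exon) is given for Dll4, Jag1 and Notch4, and for Hey2 as the 1 member whose promoter held a full RBPJ site. Of the 10 members, 7 had an entry in the promoter table, and Hes1, Hey1 and Heyl did not. Capitals mark CACNAG, the N-box bound by HES repressors, in Dll4, and GTGGGAA, the site bound by RBPJ, read on the opposite strand in Hey2.
Dll4, chr2:119325534-119325783, plus strand: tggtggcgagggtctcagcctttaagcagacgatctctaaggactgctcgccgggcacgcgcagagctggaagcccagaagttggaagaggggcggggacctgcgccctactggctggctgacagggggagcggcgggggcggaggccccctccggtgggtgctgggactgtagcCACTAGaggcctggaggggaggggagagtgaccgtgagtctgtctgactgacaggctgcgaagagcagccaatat
Jag1, chr2:137116645-137116770, minus strand: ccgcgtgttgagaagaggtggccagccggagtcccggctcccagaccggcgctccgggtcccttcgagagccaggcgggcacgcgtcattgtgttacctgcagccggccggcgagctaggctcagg
Notch4, chr17:34564045-34564267, plus strand: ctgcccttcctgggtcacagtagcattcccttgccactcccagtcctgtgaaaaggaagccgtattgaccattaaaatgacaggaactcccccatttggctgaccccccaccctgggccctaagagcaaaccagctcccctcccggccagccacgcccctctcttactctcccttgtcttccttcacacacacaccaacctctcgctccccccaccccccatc
Hey2, chr10:30842802-30843033, minus strand: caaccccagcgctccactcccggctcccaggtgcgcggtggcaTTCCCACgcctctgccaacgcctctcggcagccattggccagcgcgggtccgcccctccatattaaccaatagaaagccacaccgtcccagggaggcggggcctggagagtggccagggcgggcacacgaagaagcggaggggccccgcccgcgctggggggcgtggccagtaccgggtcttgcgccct
Both strands of the 300 bases around each start (250 before, 50 after) were searched. GTGGGAA, which contains the shorter core TGGGAA, was found in Hey2 alone of the 7, at -207 and again at -4 outside the printed stretch. Of 32851 promoters of the same length, 6.38% held GTGGGAA and 25.6% held the core. The N-box CACNAG was found in Notch1, Notch2, Notch3 and Dll4 (at -75 in Dll4), and in 42.5% of all promoters. Neither CACGTG, the E-box of HEY repressors, nor TGACGTCA, the site of CREB, was in any of the 7, against 7.15% and 1.79% of all promoters. These matches describe letters only and say nothing of binding.

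Hes1 was the most abundant member per length. At rest its level was 14.4 ± 2.91 CPM per kb of exon (SD, n = 12), above Notch3, the next, in 12 of 12 mice and without overlap. Notch3 followed at 4.70 ± 0.720 CPM per kb, then Jag1 at 3.94 ± 0.502 and Notch2 at 3.83 ± 0.830, and these neighbours overlapped: Notch3 exceeded Jag1 in 10 of 12 mice and Jag1 exceeded Notch2 in 6 of 12. Heyl (2.31 ± 0.489), Dll4 (2.22 ± 0.565), Hey1 (1.87 ± 0.375), Notch1 (1.67 ± 0.327) and Notch4 (1.55 ± 0.215) formed a lower tier, again with overlapping ranges. Hey2 came last at 0.139 ± 0.0430 CPM per kb, far below Notch4 and with only 7 to 36 counts per library, so its values carry the largest counting error. After exercise the order of level changed at several places: Hes1 still led at 6.71 ± 1.01 CPM per kb (n = 13) but now overlapped Notch3 (4.05 ± 0.770), Notch4 took rank 5 at 2.22 ± 0.307, and Dll4 took rank 9 at 1.32 ± 0.231. Exercised neighbours from Notch4 down to Notch1 (2.00 ± 0.293) did not separate, with Notch4 above Hey1 in 6 of 13 mice, Hey1 above Heyl in 7 and Heyl above Notch1 in 6.

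**Figure D1:**
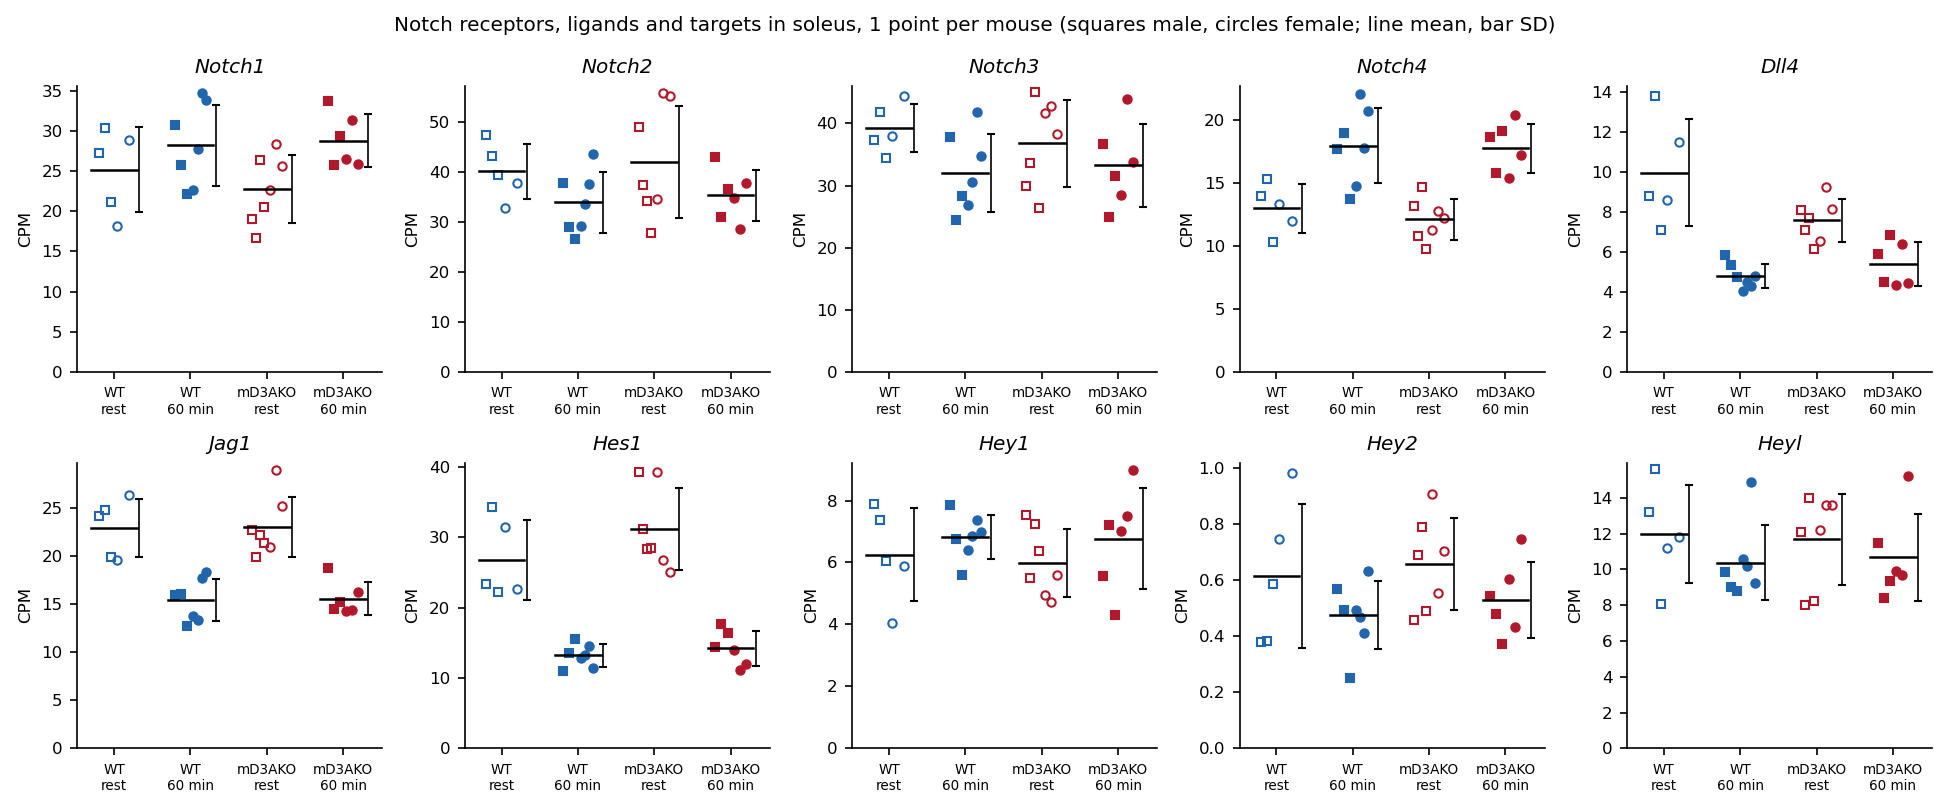
Level in CPM (linear axis from 0) of each of the 10 genes in each mouse, by genotype and exercise. Squares are males, circles females, the line is the group mean and the bar its SD. Hes1 ran from 22.2 to 39.2 CPM at rest and from 11.0 to 17.6 CPM after exercise, and Jag1 from 19.6 to 28.9 and from 12.7 to 18.7 CPM. Each was lower after exercise without overlap, as were 0.306% of all tested genes.

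The first comparison asked how the 10 genes differed between rested muscle and muscle 60 min after exercise, averaged over genotypes. Hes1, Dll4 and Jag1 fell and Notch4 rose, while the other 6 did not pass the test. That is 4 of 10 members with an adjusted p under 0.05 in edgeR's quasi-likelihood test, against 10.4% of all tested genes (5.7% higher and 4.69% lower). Since the members were chosen with earlier results of these data known, this count and those below describe them and do not test the set. The median log2 fold change of the members was -0.23, beside -0.00088 over all tested genes. At an unadjusted p under 0.05, 7 members passed, against 21.3% of all genes.

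Both ligands on the list fell. Jag1 encodes a transmembrane ligand of endothelial and mural cells. In rested WT mice it was at 19.6, 24.1, 24.8, 19.9 and 26.3 CPM, and in rested mD3AKO mice between 19.9 and 28.9 CPM (median 22.2). After exercise it lay between 12.7 and 18.3 CPM in WT mice (median 15.9) and between 14.3 and 18.7 CPM in mD3AKO mice (median 14.9). Every exercised mouse was thus below every rested mouse, which held in the same direction for 0.306% of all tested genes. The log2 fold change was -0.57 (SE 0.072, adjusted p = 2.49e-06), a level 0.673 times that at rest. The gene spans chr2:137081456-137116644 on the minus strand (mm10).

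Dll4, the ligand of arterial and tip endothelial cells at chr2:119325784-119335962, was at 8.59, 8.78, 13.8, 7.10 and 11.5 CPM in rested WT mice. Exercised WT mice had 4.05 to 5.85 CPM (median 4.73), all below the rested ones, as in 1.18% of all genes. In mD3AKO mice it ran from 6.15 to 9.24 CPM at rest (median 7.71) and from 4.34 to 6.82 CPM after exercise (median 5.17), and these ranges overlapped. All 13 exercised mice were below the rested median of 8.11 CPM, and 2 of them lay within the rested range. The log2 fold change over both genotypes was -0.77 (SE 0.10, adjusted p = 5.06e-06). Its exons share 214 bases with Gm14207 on the opposite strand, and since the sources used here do not give whether counting used the strand, reads of the 2 genes there cannot be told apart.

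Among the receptors only Notch4 passed the test, and it went up. Rested WT mice had 13.3, 14.0, 15.3, 10.3 and 12.0 CPM, and rested mD3AKO mice 9.79 to 14.7 CPM (median 12.2). Exercised mice had 13.7 to 22.1 CPM (WT, median 17.8) and 15.4 to 20.4 CPM (mD3AKO, median 18.0). All 13 exercised mice were above the rested median of 12.5 CPM, the ranges were separate in mD3AKO mice (higher without overlap in 1.55% of all genes), and 2 exercised WT mice reached into the rested range. The log2 fold change was 0.51 (SE 0.080, adjusted p = 6.25e-05), 1.42 times the rested level. Notch4 lies at chr17:34564268-34588503 and shares no exon with another gene.

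The other 3 receptors gave unadjusted p under 0.05 but did not pass after adjustment. Notch1, the receptor of endothelium and satellite cells, was at 23.7 ± 4.65 CPM at rest (SD, n = 12) and 28.5 ± 4.17 CPM after exercise (n = 13), a log2 fold change of 0.25 (SE 0.098, adjusted p = 0.107), with 11 of 13 exercised mice above the rested median. It passed when ranges of mouse numbers, whose meaning the labels do not give, were added to the model (0.28, adjusted p = 0.0431). Notch2, the second receptor of satellite cells, was at 41.2 ± 8.95 and 34.6 ± 5.48 CPM (-0.25, SE 0.11, adjusted p = 0.16). Notch3, the mural cell receptor, was at 37.8 ± 5.79 and 32.6 ± 6.19 CPM (-0.22, SE 0.098, adjusted p = 0.184). For both, 11 of 13 exercised mice were below the rested median and the ranges overlapped widely. Exons of Notch1 share 1068 bases with 0610009E02Rik and 414 with Gm13568, and those of Notch3 488 bases with Gm17276, all on the opposite strand, and Notch2 shares 541 bases with Gm42820 on its own strand.

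Of the 4 targets, Hes1 changed most among all members. This basic helix-loop-helix repressor (chr16:30064384-30067796) was at 31.4, 23.3, 34.3, 22.2 and 22.6 CPM in rested WT mice and between 25.0 and 39.2 CPM (median 28.4) in rested mD3AKO mice. After exercise it was between 11.0 and 15.6 CPM in WT mice (median 13.3) and between 11.1 and 17.6 CPM in mD3AKO mice (median 14.2). The highest exercised mouse was below the lowest rested mouse, at 17.6 against 22.2 CPM, as in 0.306% of all tested genes. The log2 fold change was -1.08 (SE 0.095, adjusted p = 6.24e-09), a level 0.475 times that at rest, with a 95% interval from -1.26 to -0.89.

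The HEY targets, the hairy-related repressors of vessels and satellite cells, gave smaller values and did not pass. Hey1 was at 6.10 ± 1.22 CPM at rest (SD, n = 12) and 6.80 ± 1.16 CPM after exercise (n = 13), a log2 fold change of 0.15 (SE 0.11, adjusted p = 0.491). Hey2 was at 0.639 ± 0.198 and 0.50 ± 0.125 CPM (-0.35, SE 0.17, adjusted p = 0.246), with 12 of 13 exercised mice below the rested median. Heyl was at 11.8 ± 2.5 and 10.5 ± 2.17 CPM (-0.17, SE 0.12, adjusted p = 0.453). Leaving out 1 mouse gave log2 fold changes of 0.092 to 0.20 for Hey1, -0.41 to -0.23 for Hey2 and -0.23 to -0.11 for Heyl. The approximate 95% intervals ran from -0.065 to 0.37 for Hey1, from -0.69 to -0.011 for Hey2 and from -0.40 to 0.059 for Heyl. That of Hey2 ends just short of 0 while its unadjusted p is 0.0541, since these intervals, from a normal approximation, are slightly narrower than the test. None of the 3 intervals reached the change of Hes1. Whether each differed from Hes1 was not tested.

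The second comparison asked whether the response held in each genotype. In WT mice Notch4 rose and Dll4, Jag1 and Hes1 fell, 4 of 10 members against 3.59% of all genes, and in mD3AKO mice the same 4 passed, against 6.02% of all genes. Hes1 changed by -1.02 (SE 0.14, adjusted p = 1.83e-05) in WT and -1.13 (SE 0.13, adjusted p = 1.88e-06) in mD3AKO mice. Jag1 changed by -0.58 (SE 0.10, adjusted p = 0.000882) and -0.57 (SE 0.10, adjusted p = 0.00052). Notch4 gave 0.47 (SE 0.12, adjusted p = 0.0191) and 0.55 (SE 0.11, adjusted p = 0.00203). These 3 pairs lay within 1 SE of each other. The call of Notch4 in WT mice was lost without rested mouse 14 (0.39, adjusted p = 0.0897) or 20 (0.44, adjusted p = 0.0652). With library totals in place of normalized sizes, WT mice kept Dll4 and Hes1 alone past the threshold and mD3AKO mice kept Jag1 and Hes1.

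**Figure D2:**
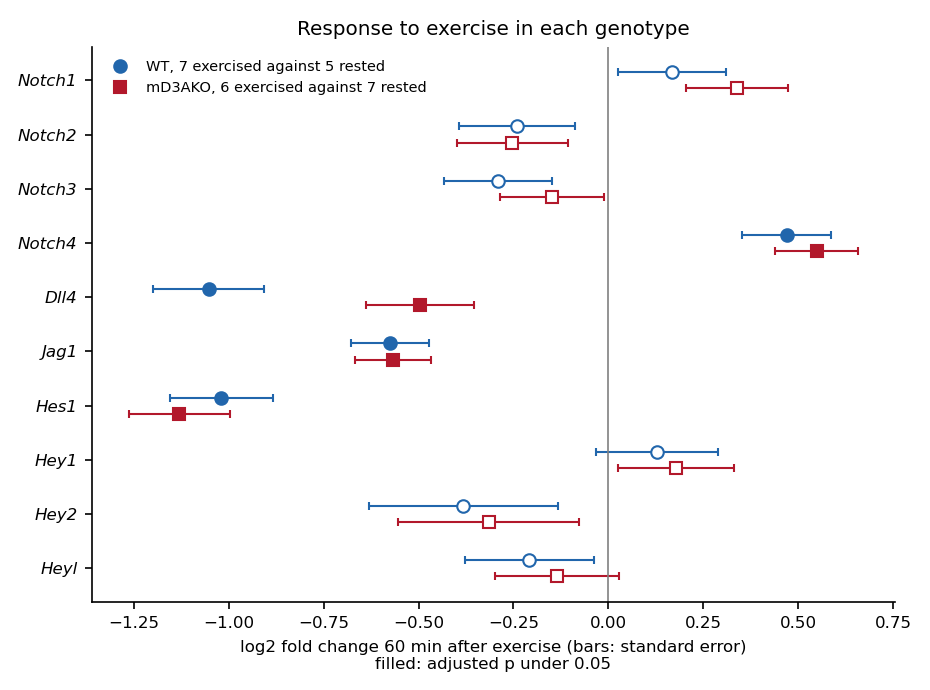
Log2 fold change from rest to 60 min after exercise of each gene, in WT mice (circles, 7 against 5 mice) and mD3AKO mice (squares, 6 against 7), with its SE. Filled symbols have an adjusted p under 0.05, which are Notch4, Dll4, Jag1 and Hes1 in both genotypes, and the widest gap between genotypes is that of Dll4, at -1.05 and -0.50.

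Dll4 was the member whose fold changes lay farthest apart, -1.05 in WT mice (SE 0.15, adjusted p = 3.21e-05) and -0.50 in mD3AKO mice (SE 0.14, adjusted p = 0.0354). The test of this difference itself, the interaction, gave 0.56 (SE 0.20, 95% interval 0.16 to 0.96), with an unadjusted p of 0.0113 and an adjusted p of 1 in edgeR. At rest WT mice averaged 9.96 ± 2.68 CPM (SD, n = 5) against 7.57 ± 1.05 CPM for mD3AKO mice (n = 7), a log2 difference of -0.39 (SE 0.15, 95% interval -0.68 to -0.11, unadjusted p = 0.0123, adjusted p = 1). After exercise the genotypes were at 4.80 ± 0.617 (n = 7) and 5.39 ± 1.10 CPM (n = 6), a log2 difference of 0.17 (SE 0.14, adjusted p = 0.991). The rested difference was -0.24 without WT mouse 13, and the exercised one 0.087 without mD3AKO mouse 19. The call in mD3AKO mice lost significance without any 1 of mice 3, 7, 12, 17, 21, 23 or 24 (log2 fold changes from -0.49 to -0.44, adjusted p from 0.0566 to 0.0944), and with ranges of mouse numbers in the model (-0.46, adjusted p = 0.0527), where Notch1 passed in mD3AKO mice instead (0.40, adjusted p = 0.0475). For the other 9 members the interaction ran from -0.11 (Hes1) to 0.17 (Notch1). Without 1 mouse it ran from -0.22 to -0.045 for Hes1 and from 0.091 to 0.27 for Notch1. For the interaction, 0 of 10 members passed in edgeR, 1 at an unadjusted p under 0.05, and 0 with DESeq2. Of all genes, 0% passed after adjustment and 2.47% before it.

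The third comparison asked whether loss of DNMT3A from fibers went with a change in these genes. Averaged over rest and exercise, 0 of 10 members passed in edgeR, 0 also at an unadjusted p under 0.05, and 0 with DESeq2, while 0.269% of all genes passed after adjustment and 6.23% before it. Hes1 had the largest difference, 0.16 (SE 0.095, unadjusted p = 0.094, adjusted p = 0.9), with means of 31.2 ± 5.81 CPM in rested mD3AKO (SD, n = 7) and 26.8 ± 5.66 CPM in rested WT mice (n = 5). The 95% intervals of the 4 genes that responded to exercise were -0.021 to 0.35 for Hes1, -0.13 to 0.15 for Jag1, -0.31 to 0.088 for Dll4 and -0.21 to 0.10 for Notch4. These intervals hold for the average over both states, in which the opposite differences of Dll4 at rest and after exercise partly cancel. Every one of the 10 genes had overlapping ranges in WT and mD3AKO mice, and the ranges were separate for 0.049% of all genes. Of the 6 satellite cell markers, 1 differed between genotypes (Pax7, log2 difference 0.48 in mD3AKO over WT mice, adjusted p = 0.0384), and its part in these values was not tested.

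Sex was recorded for every mouse, and the exercise response was compared between males and females over both genotypes. Males were mice 7 to 19, and females were mice 1 to 6 and 20 to 25. A difference between these number ranges thus cannot be told apart from one between the sexes. In males the 4 genes named above passed, against 6.87% of all genes, and in females the same 4 and Hey1 did, 5 of 10 against 3.7%. Hes1 changed by -0.98 in males and -1.17 in females, Dll4 by -0.63 and -0.92, Jag1 by -0.52 and -0.64, and Notch4 by 0.45 and 0.56. Exercised and rested females did not overlap for Notch4, Dll4, Jag1, Hes1 and Hey1, against 3.18% of all genes, and males did not overlap for Jag1 and Hes1, against 3.59%. The call of Notch4 was lost in males without mouse 14, 16 or 19 (adjusted p from 0.0563 to 0.0757) and in females without mouse 20 (adjusted p = 0.0732). With library totals in place of normalized sizes, Notch4 no longer passed in males (adjusted p = 0.263) or females (adjusted p = 0.195), nor Dll4 in males (-0.67, adjusted p = 0.0551).

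Of the 10 genes, Hey1 had the widest gap between the responses of the sexes. Rested females had 4.03 to 5.90 CPM (median 4.96, n = 5) and exercised females 6.39 to 8.98 CPM (median 7.03, n = 7). Rested males had 5.49 to 7.90 CPM (median 7.25, n = 7) and exercised males 4.31 to 7.84 CPM (median 6.18, n = 6). Exercised females were thus all above rested females, while the males overlapped. The log2 fold change was 0.55 in females (SE 0.13, adjusted p = 0.0167) and -0.15 in males (SE 0.12, adjusted p = 0.568). Both values weight the genotypes equally, and rested WT females were only 2 mice. Without 1 mouse the value in males ran from -0.26 to -0.080. The difference between these responses, male minus female, was -0.70 (SE 0.18, unadjusted p = 0.000778), but it did not pass over all genes (adjusted p = 0.552). By that test 0 of 10 members passed in edgeR, 1 at an unadjusted p under 0.05, and 0 with DESeq2, against 0.0551% of all genes after adjustment and 3.34% before it. The call in females was lost without mouse 1, a rested WT mouse with the lowest Hey1 of all (0.42, adjusted p = 0.153), and with library totals in place of normalized sizes (0.52, adjusted p = 0.2).

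**Figure D3:**
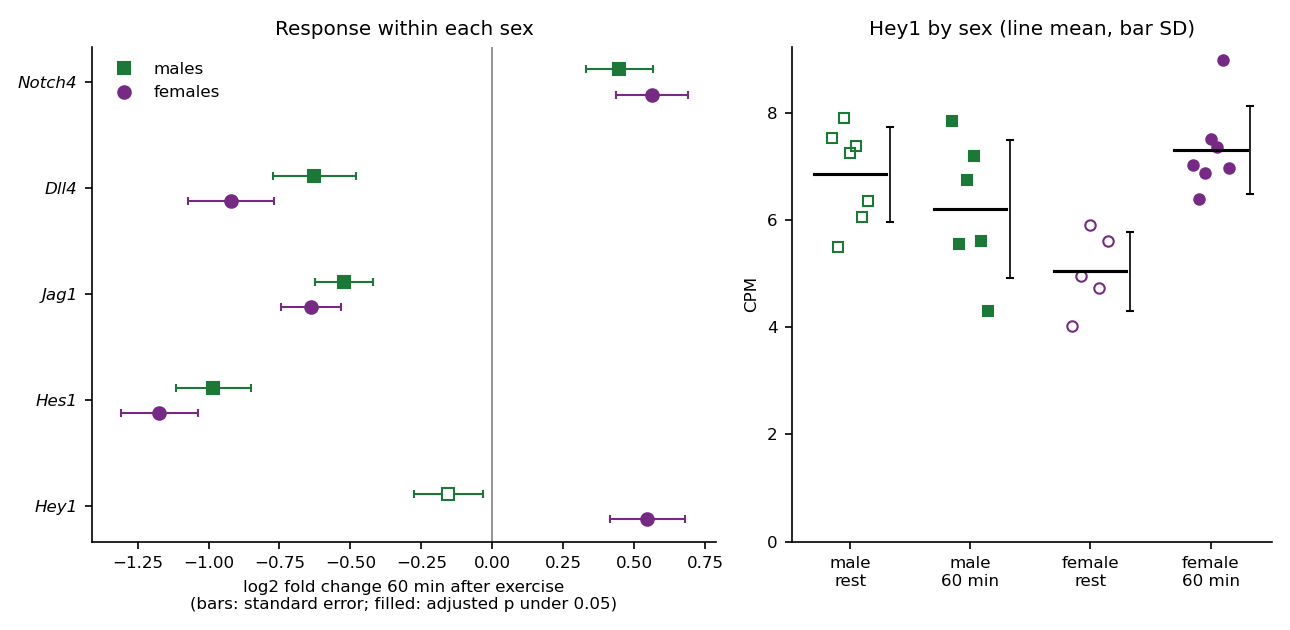
Left, log2 fold change from rest to 60 min after exercise with its SE in males (squares) and females (circles) for 5 genes, filled where the adjusted p is under 0.05. Right, Hey1 in CPM in each mouse by sex and exercise, with the mean (line) and SD (bar), where exercised females (6.39 to 8.98 CPM) lie above rested females (4.03 to 5.90 CPM).

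The rest of the pathway was read from a list of 55 further genes grouped by role, of which 48 passed the filter. This list too was drawn up with earlier results of these data known. Exercise changed 8 of these 48, with 2 higher and 6 lower, against 10.4% of all tested genes (5.7% higher and 4.69% lower). Their median log2 fold change was -0.017, beside -0.00088 over all tested genes. The genes that did not pass it were the ligands Dll3, Dlk1 and Dlk2 and the targets Hes2, Hes3, Hes5 and Hes7, whose highest count in any library was 31 (Dlk1).

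Of the 2 other ligands tested, Jag2 rose from 30.9 ± 2.84 CPM at rest (SD, n = 12) to 37.2 ± 2.79 CPM (n = 13; 0.27, adjusted p = 0.00059), opposite in direction to Jag1. Dll1, the ligand of satellite cell progeny, gave 0.048 (adjusted p = 0.907). Among 5 enzymes that add sugars to the receptors, Lfng, the fringe transferase that shifts receptors toward Delta ligands, rose from 5.88 ± 1.52 to 8.68 ± 1.99 CPM (0.56, adjusted p = 0.00596), and the other 4 did not pass. Of 10 genes for the proteases that cut the receptors and their partner subunits, 1 passed, against 10.4% of all genes: Aph1b, a non-catalytic part of gamma-secretase, fell (-0.29, adjusted p = 0.021). This call was lost without rested WT mouse 14 (-0.26, adjusted p = 0.0508).

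Of the 14 ubiquitin ligases and endocytic adaptors, 4 passed, all lower, against 4.69% of all genes. Neurl1b, a Neuralized ligase that acts on ligands, went from 6.45 ± 0.950 to 4.59 ± 0.811 CPM (-0.48, adjusted p = 0.000953), and its relative Neurl3 from 1.89 ± 0.726 to 1.12 ± 0.409 CPM (-0.72, adjusted p = 0.0157). Dtx4, a Deltex ligase, went from 12.5 ± 2.93 to 7.76 ± 1.59 CPM (-0.67, adjusted p = 0.000287), and Dtx3l from 22.5 ± 1.59 to 19.7 ± 1.16 CPM (-0.19, adjusted p = 0.00251). Mib1, the ligase most needed for ligand activity, was among the 10 that did not pass. In the nucleus, 0 of 7 genes for RBPJ and its co-activators and 0 of 5 co-repressors passed in edgeR, 1 and 0 at an unadjusted p under 0.05, against 10.4% and 21.3% of all genes. Rbpj itself gave -0.15 (SE 0.055, adjusted p = 0.0838), at 20.3 ± 2.19 CPM at rest and 18.2 ± 1.38 CPM after exercise. Among 5 genes listed as other targets, 1 passed, against 10.4% of all genes. This was Bhlhe40, a repressor that also answers to hypoxia and the clock, which fell from 113 ± 15.7 to 86.3 ± 15.8 CPM (-0.40, adjusted p = 0.003). Whether its fall was tied to Notch was not tested. Nrarp, a feedback inhibitor and direct target, gave -0.39 (SE 0.18, adjusted p = 0.196) at 1.59 ± 0.615 and 1.23 ± 0.296 CPM. With library totals in place of normalized sizes, Jag2, Lfng, Aph1b and Dtx3l kept their direction but no longer passed (adjusted p from 0.0588 to 0.215). For genotype, 0 of the 48 genes passed in edgeR, 5 at an unadjusted p under 0.05, and 0 with DESeq2, against 0.269% of all genes after adjustment and 6.23% before it.

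**Figure D4:**
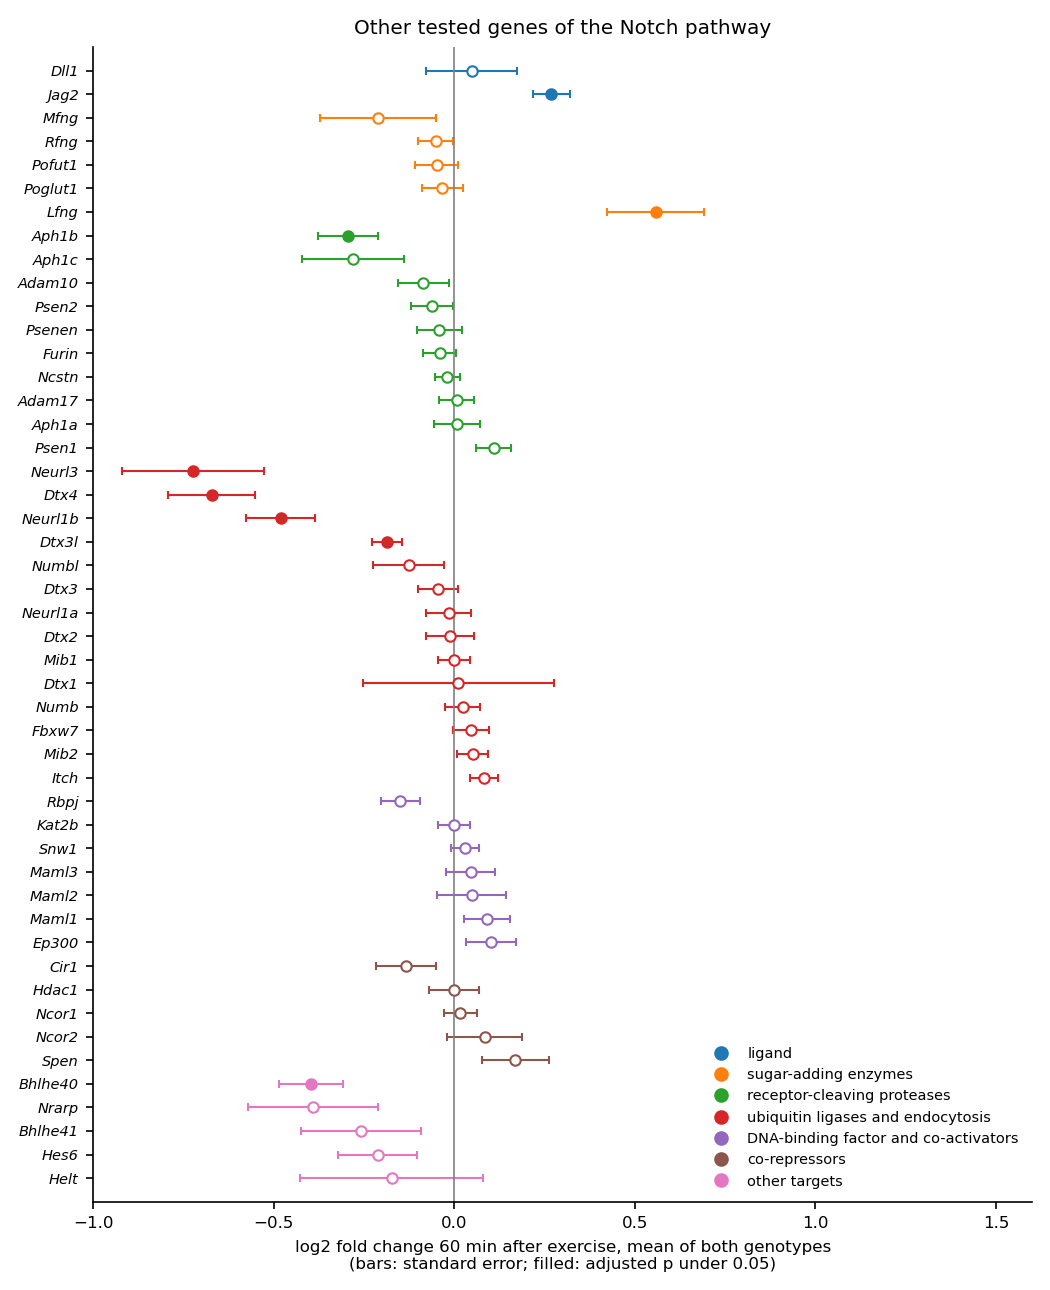
Log2 fold change from rest to 60 min after exercise, averaged over genotypes, with its SE, for the 48 tested genes of the pathway list, colored by role. Filled points have an adjusted p under 0.05, with Jag2 and Lfng to the right of 0 and Neurl3, Dtx4, Neurl1b, Bhlhe40, Aph1b and Dtx3l to the left.

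Markers of the cells that carry these genes were compared between rested and exercised mice in the same fit, in which 10.4% of all tested genes passed (5.7% higher and 4.69% lower). Of 13 endothelial markers 9 passed, with 3 higher (Flt1, Esam and Robo4) and 6 lower (Cdh5, Kdr, Tek, Emcn, Cldn5 and Egfl7). Kdr, the main VEGF receptor, changed by -0.58 (adjusted p = 2.1e-06) and Flt1, its decoy, by 0.32 (adjusted p = 0.000337), while Pecam1, found on all endothelium, gave -0.092 (adjusted p = 0.329). The summed level of the 13 ran from 607 to 806 CPM at rest (median 686) and from 562 to 718 CPM after exercise (median 630), and no marker was at 0 in any library. Of 5 arterial markers, Sox17 rose (0.77, adjusted p = 2.05e-06) and Gja4 and Efnb2 fell (-0.65 and -0.66), with sums of 33.3 to 58.3 and 32.0 to 45.8 CPM. Of 9 markers of pericytes and smooth muscle, Cnn1 rose and Pdgfrb and Kcnj8 fell, with sums of 1090 to 1330 and 1100 to 1310 CPM. Rgs5 (mean 628 CPM) and Abcc9 (mean 339 CPM) made up most of these sums, which thus say little of the other markers. Of 6 satellite cell markers, Pax7 (-0.45, adjusted p = 0.00411) and Myf5 (-0.46, adjusted p = 0.000843) fell, with sums of 48.0 to 68.2 and 44.6 to 65.6 CPM. Of the 13 endothelial markers, 10 had negative log2 fold changes and 3 positive ones (median -0.21), and those that passed moved in both directions. The satellite cell markers that passed only fell. The part of cell content in the members' changes was not tested. Of the markers of fibroblasts, immune cells, adipocytes, Schwann cells, blood and fibers, 0 passed for exercise in edgeR, and at an unadjusted p under 0.05 only 2 of 6 fibroblast markers did, against 21.3% of all genes. All 6 fibroblast markers had negative log2 fold changes (median -0.38, lowest adjusted p = 0.0549), with sums of 1100 to 5450 CPM at rest (median 2150) and 1210 to 2930 CPM after exercise (median 1970). The T cell marker Cd3e was at 0 in 8 libraries.

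To describe which genes varied with each member between mice of the same group, log2 CPM was centred on the group mean and correlated over the 25 libraries with every tested gene, and the 2 highest were taken. Values share library and normalization, and are a description only. Notch2 was closest to Lrp1, an endocytic receptor (Pearson 0.921, Spearman 0.932), and to Slc29a3 (Pearson 0.914, Spearman 0.886). Jag1 was closest to Dlc1 (Pearson 0.885, Spearman 0.908), and to Nrp2, a co-receptor of semaphorins and VEGF (Pearson 0.878, Spearman 0.888). These were the tightest pairs, followed by Notch1 with Ptprb, the phosphatase of endothelial junctions (Pearson 0.871, Spearman 0.822), and Itpkb (Pearson 0.864, Spearman 0.847). Notch3 was closest to Celsr1 (Pearson 0.857, Spearman 0.832) and She (Pearson 0.827, Spearman 0.82), and Notch4 to Nod2 (Pearson 0.834, Spearman 0.808) and Fscn1 (Pearson 0.829, Spearman 0.805). Heyl was closest to the forkhead gene Foxs1 (Pearson 0.831, Spearman 0.812) and to Gjc1 (Pearson 0.803, Spearman 0.825). Dll4 was closest to the mechanosensitive channel Piezo1 (Pearson 0.778, Spearman 0.778) and to Ldlrad4 (Pearson 0.759, Spearman 0.798). The values of Hes1 were lower, with Enho (Pearson 0.731, Spearman 0.795) and Slc35f5 (Pearson 0.709, Spearman 0.658) first, as were those of Hey1 with Ung (Pearson 0.706, Spearman 0.679) and Tcim (Pearson 0.687, Spearman 0.498). Hey2, at 7 to 36 counts per library, was closest to Tmem175 (Pearson 0.797, Spearman 0.739) and Fbxo25 (Pearson 0.789, Spearman 0.722). Among the members themselves the highest values were those of Notch1 with Jag1 (r = 0.799), Notch2 with Jag1 (r = 0.727) and Notch1 with Notch3 (r = 0.701), and Hes1 ran from -0.329 with Hey2 to 0.0171 with Heyl.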

How the data were processed

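Total RNA of soleus was depleted of ribosomal RNA and sequenced as stranded paired-end libraries. Per the labels' processing notes, the authors used FastQC 0.11.5, STAR 2.5.3a and featureCounts 1.5.3 on mm10, with GENCODE gene models. The deposited values are raw gene counts, 22671457 to 37431801 per library, with each gene's merged exon length, and no reads were reprocessed. Whether counting used the strand is not given in the sources used here. A symbol was matched to 52403 of 52636 genes.

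Counts were fitted with edgeR 4.0.16 in R 4.3.3: TMM normalization, the filterByExpr filter over 4 groups (minimum count 10, minimum total 15, leaving 16340 genes with at least 99.89% of counts), glmQLFit with 1 mean per group, and glmQLFTest. The p-values were adjusted by Benjamini-Hochberg over all tested genes and called under 0.05. Exercise and genotype are means of the 2 simple contrasts, and sex was fitted with 1 mean per sex, genotype and exercise. Each SE was derived from the estimate and its F statistic, and approximate 95% intervals are 1.96 SE on each side. CPM uses TMM library sizes. Each mouse is 1 library, and of 67 pairs within groups 0 were identical. The fit was checked on simulated counts.

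Alternatives were DESeq2 1.42.0 and its size factors, library totals without TMM, no filter, a filter of 1 CPM in 5 libraries, sex or ranges of mouse numbers as a term, and leaving out each mouse. All 10 genes were named by rule, as were called genes of the pathway list and the 2 genes most like each member. The members and lists were chosen with earlier results of these data known. Promoter sequences are from RefSeq, build GRCm38.p6.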

Additional observations from a re-analysis of the deposited data

Results flagged for a closer look

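Heyl in mouse 22, an exercised WT female, was at 14.9 CPM, far from the other 6 mice of its group, whose nearest was at 10.6 and lowest at 8.81 CPM. The gap took 0.712 of the group's range, above the critical value of 0.568 for 7 samples. Of 40 such checks (10 genes in 4 groups) this was the 1 that stood out, and chance alone gives about 1 in 20, or 2 of 40.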

How the results depend on the processing

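The 4 genes called for exercise kept their direction and their call under all 7 alternatives to the main settings and without each mouse in turn, with log2 fold changes over the 7 alternatives of -1.10 to -1.06 for Hes1, -0.81 to -0.75 for Dll4, -0.59 to -0.55 for Jag1 and 0.49 to 0.51 for Notch4, and without 1 mouse of -1.11 to -1.02, -0.83 to -0.70, -0.60 to -0.54 and 0.47 to 0.54 in that order. Ranges of mouse numbers as a term added Notch1, for 5 members called. With library totals in place of TMM, 2 members were called in WT and 2 in mD3AKO mice, where the main settings gave 4 each, and 4 of the pathway genes, where they gave 8. Mouse 15, with 39.5% of its counts on 3 ribosomal RNA genes, had a TMM factor of 0.631, against 0.911 to 1.16 in the other libraries. The cause of the lost calls was not tested. Leaving out 1 mouse gave 3 to 4 members in each genotype and 7 to 9 pathway genes.

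Values near 0 changed sign. With library totals, the genotype difference became -0.021 for Jag1 and -0.012 for Heyl, and the interaction -0.024 for Jag1. The interaction of Jag1 was -0.00061 without a filter, and that of Notch2 was 0.0089 with sex and 0.092 with mouse number ranges as a term. Without 1 mouse, the genotype difference ran from -0.067 to 0.020 for Notch3, -0.022 to 0.035 for Jag1, -0.10 to 0.010 for Hey1 and -0.057 to 0.063 for Heyl. The interaction ran from -0.078 to 0.065 for Notch2, -0.054 to 0.068 for Jag1, -0.052 to 0.17 for Hey1, -0.17 to 0.20 for Hey2 and -0.058 to 0.19 for Heyl, and the difference between the exercise responses of males and females for Jag1 from -0.0023 to 0.22. None of these passed the test in any setting. No paired analysis was possible because each mouse number occurs in only 1 group.

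Hey2, at 7 to 36 counts per library, is the member that depth limits most. Each group holds 5 to 7 mice. The p-values weigh each difference against the spread between mice of the same group, estimated over all groups together. In the fit by sex, each group of sex, genotype and exercise held only 2 to 4 mice.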
